A study of Homarus americanus with 19 samples.

Results

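Gene expression in whole American lobster (Homarus americanus) larvae held in 72% WAF, the water accommodated fraction of an oil, was compared with that in larvae held in clean seawater. All larvae of both groups were taken, 7 from WAF and 6 controls, which made 13 of the 19 libraries in the series. The WAF larvae spent 24 h in 72% WAF, and the control larvae spent the same time in seawater passed through a 0.22 µm filter. The 6 remaining libraries, from larvae in 1-methylnaphthalene at 0.3 mg/L, entered the fit and are set beside the results only where stated. The sample labels give the stage as embryonic day 9 for every library, whereas the study's methods call the animals stage I larvae, and neither gives sex, family or exposure vessel. P-values therefore measure the spread between these libraries. RNA was extracted from homogenized whole larvae with Trizol, so every value is a mixture of all tissues.

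A WAF holds the part of an oil that enters water when both are mixed, mainly small aromatic and other soluble hydrocarbons. Animals commonly handle such compounds with cytochrome P450 enzymes, which oxidize them, and with transferases, which attach a soluble group. Cells also carry chaperones such as Hsp70 and Hsp90, which help other proteins to fold. In many animals the inducible Hsp70 genes are transcribed under heat shock factor when unfolded proteins accumulate, and adaptors such as sequestosome-1 pass ubiquitin-tagged proteins on to autophagy.

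Expression was measured in 2 tables from the same reads. The first holds Kallisto counts per RefSeq transcript, summed here per gene, and the second Seq2Fun counts per ortholog group, a set of related genes from crustaceans. Levels are given in CPM, counts scaled to the same total in every library after TMM normalization, and a level of a gene is not corrected for its length. Total counts per larva lay between 14295541 and 44466298 in WAF larvae, against 15342068 and 38401092 in control larvae, in the Kallisto table. They lay between 4580939 and 22681602 in WAF larvae, against 7072400 and 15350731 in control larvae, in the Seq2Fun table. Totals did not differ between the groups beyond their spread (exact permutation test over all 1716 splits, two-sided, p = 0.879 for Kallisto and 0.748 for Seq2Fun). Differentially expressed genes (DEGs) had a Benjamini-Hochberg adjusted p below 0.05 from edgeR's quasi-likelihood test and an absolute log2 fold change above 1.5. Gene names came from the study's supplementary list for the most significant features of methylnaphthalene, chosen on libraries that share these controls. A named list is thus no independent evidence of a direction, and features without a name are given by identifier.

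WAF replicates 6 and 7 differed from the other 5 WAF larvae, in a split that the other groups shared. Noncoding genes took 12.7% and 16.0% of their Kallisto counts, against 30.5% to 34.4% in WAF replicates 1 to 5. Their TMM factors of 1.16 and 1.19 were like those of control replicates 5 and 6 (1.19 and 1.16), whereas WAF replicates 1 to 5 had 0.797 to 0.934. Control replicates 5 and 6 had noncoding shares of 17.2% and 15.9%, near control replicate 3 at 17.1% and below the 23.0% to 27.5% of the other controls. Methylnaphthalene replicates 4 to 6 had 13.1% to 14.2%, and replicates 1 to 3 had 24.6% to 33.6%. The labels name no batch, and whether every library carries the right label was not tested, so the values over all 7 WAF larvae rest on the labels as given. The noncoding share averaged 27.2% ± 8.91 in all WAF larvae and 20.7% ± 4.63 in control larvae (SD, n = 7 and 6), and the groups overlapped (by exact permutation p = 0.134, adjusted p = 0.268 over 6 library measures). Leaving out WAF replicate 6 alone gave a difference of 8.93 percentage points (exact p = 0.0346). Without replicates 6 and 7 the WAF share was 32.3% ± 1.41 (n = 5) and the difference 11.7 points. These larvae were singled out with the data in view, so that value is a description. Nearly all of the difference lay in a single long noncoding RNA, LOC121857831, which took 16.2% of all counts. Without it the difference was 0.488 points (exact p = 0.521). Its share was 7.47% to 28.0% (median 25.6%) in WAF larvae, against 10.2% to 20.5% (median 13.8%) in control larvae, with replicates 6 and 7 at the low end of WAF. In the fit of all genes it did not pass (log2 fold change 0.71 ± 0.46 (SE), edgeR adjusted p = 0.676). The main results below are therefore given for all 7 WAF larvae and again for the first 5.

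Few features were DEGs between WAF and control larvae, and nearly all of the DEGs were lower in WAF. In the Kallisto table, 22 of 18914 tested genes were DEGs, 20 lower and 2 higher, and the lower DEGs made up 0.106% of the genes tested. In the Seq2Fun table, 13 of 10974 ortholog groups were DEGs, all lower, which was 0.118%. Without the fold change threshold, 35 genes were lower (0.185%) and 14 higher (0.0740%), as were 22 ortholog groups (0.200%) and 9 (0.0820%). At an unadjusted p below 0.05, 681 genes were lower (3.60%) and 927 higher (4.90%), and 477 ortholog groups were lower (4.35%) and 367 higher (3.34%). The balance of directions depended on the scaling and the tool. With library sizes without TMM, 33 genes were lower and 4 higher at the adjusted p, and 886 lower and 398 higher at the unadjusted p, as were 265 ortholog groups lower and 396 higher. DESeq2 gave 83 genes lower and 89 higher at the adjusted p. The median log2 fold change over all features was 0.01 for genes and -0.02 for ortholog groups. Every DEG separated all WAF from all control larvae. The DEGs were chosen for their difference in these same larvae, so that is a description, and the share over all features was not counted. In each of the 13 fits that left out 1 larva, 18 of the 22 genes and 12 of the 13 ortholog groups were DEGs. The lower DEGs were 2.87 to 76.7 times lower in WAF among the genes and 3.34 to 58.0 times lower among the ortholog groups.

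**Figure D1:**
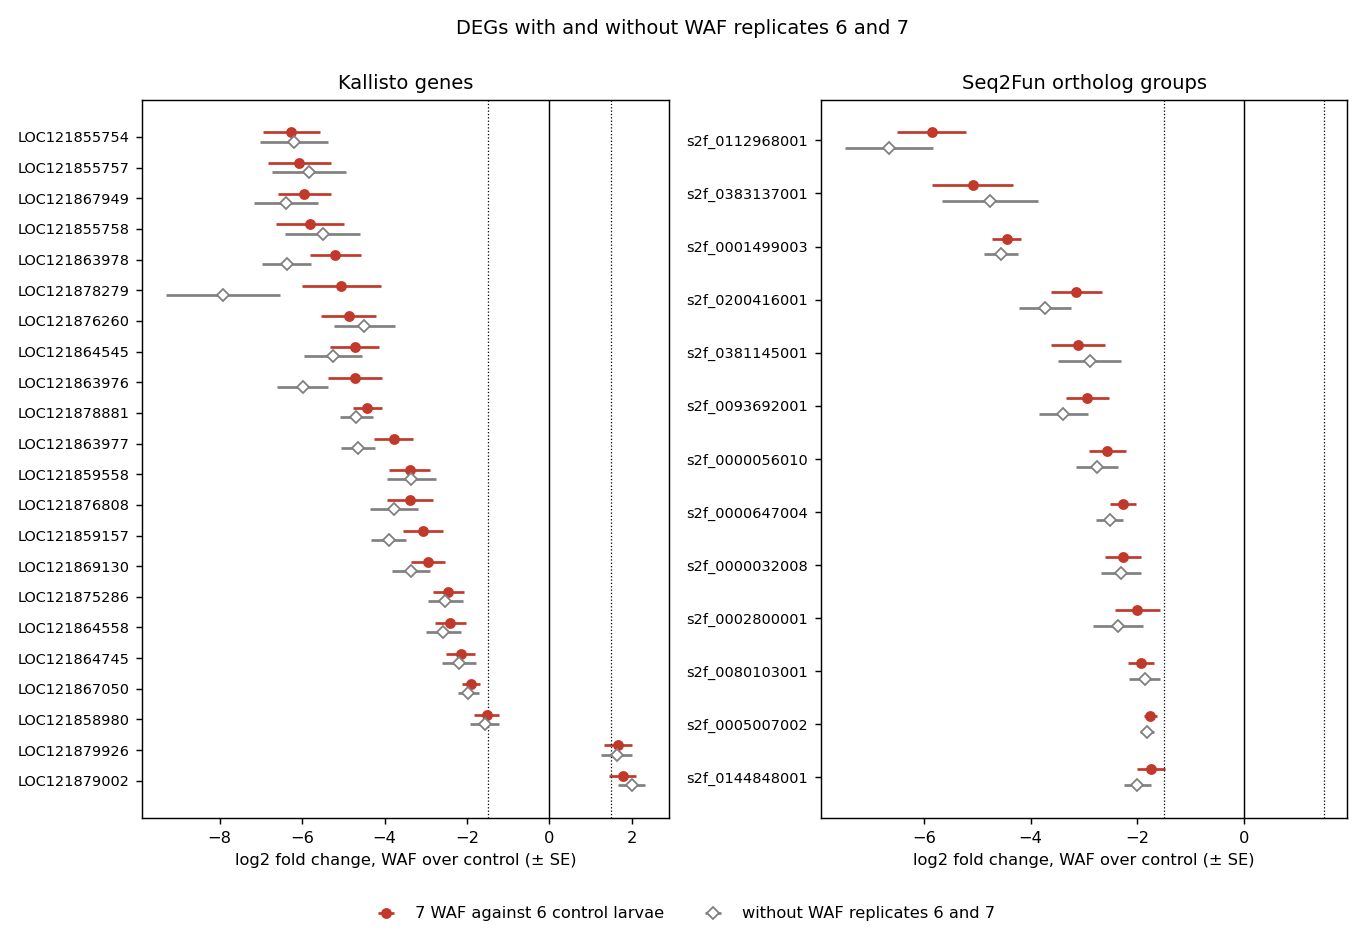
Log2 fold change of each DEG, WAF over control, with its standard error, for the 22 Kallisto genes (left) and the 13 Seq2Fun ortholog groups (right). Filled points are the fit of 7 WAF and 6 control larvae, open diamonds the fit without WAF replicates 6 and 7, and dotted lines the threshold of 1.5. All DEGs but LOC121879002 and LOC121879926 lie left of 0 in both fits.

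Some chaperone genes were among the largest differences. Hsp70 proteins bind exposed stretches of unfolded proteins and release them with ATP, and 3 genes named as heat shock 70 kDa proteins were among the DEGs. LOC121855754, an Hsp70 1-like gene, had 0.351, 0.310, 0.487, 1.18, 0.702, 0.368 and 0.761 CPM in WAF replicates 1 to 7, against 54.1, 59.0, 33.1, 113, 8.45 and 7.86 CPM in control replicates 1 to 6. The groups did not overlap, and control replicates 5 and 6 lay below the other 4 controls (log2 fold change -6.26 ± 0.69 (SE), edgeR adjusted p = 9.74e-05). LOC121855757, Hsp70-like, had 0.702, 1.33, 1.95, 4.32, 3.93, 1.36 and 1.23 CPM in WAF replicates 1 to 7, against 156, 229, 127, 291, 35.4 and 22.4 CPM in control replicates 1 to 6. Again every control exceeded every WAF larva, and control replicates 5 and 6 were the lowest controls (log2 fold change -6.07 ± 0.77 (SE), edgeR adjusted p = 4.09e-04). LOC121855758, also Hsp70 1-like, had 0, 0.222, 0.752, 1.97, 2.15, 0.717 and 0.127 CPM in WAF replicates 1 to 7, against 78.4, 54.7, 39.6, 99.6, 10.1 and 10.9 CPM in control replicates 1 to 6. WAF replicate 1 held no count of this gene, which allows up to 0.263 CPM at the limit of 3 counts (log2 fold change -5.81 ± 0.83 (SE), edgeR adjusted p = 0.00149). The 3 genes are similar in sequence by name, and reads of near-identical copies cannot be assigned with certainty. Their values differed from one another, but reads divided among copies can also give unequal values. How many reads the 3 genes share was thus not tested, and they may not be 3 separate results. Summed, they reached 1.05, 1.86, 3.19, 7.47, 6.79, 2.44 and 2.11 CPM in WAF replicates 1 to 7, against 289, 343, 199.8, 504, 54.0 and 41.2 CPM in control replicates 1 to 6. WAF replicates 6 and 7 fell inside the range of the other WAF larvae for this sum. Without replicates 6 and 7 all 3 remained DEGs, with log2 fold changes of -6.19, -5.83 and -5.50 (edgeR adjusted p = 0.00118, 0.00523 and 0.00860).

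AN1-type zinc finger protein 2A, which in mammals is induced by arsenite and associates with the proteasome, moved with them. Its gene LOC121878881 had 4.92, 6.21, 5.66, 9.08, 8.05, 13.2 and 9.38 CPM in WAF replicates 1 to 7, against 233, 119, 198, 298, 92.0 and 110.0 CPM in control replicates 1 to 6. No WAF larva came near the lowest control (log2 fold change -4.43 ± 0.35 (SE), edgeR adjusted p = 1.29e-06). The ortholog group of the same protein, s2f_0001499003, had 2.24, 2.52, 1.87, 2.51, 2.84, 3.18 and 2.96 CPM in WAF replicates 1 to 7, against 66.6, 41.3, 70.2, 89.0, 34.2 and 45.4 CPM in control replicates 1 to 6. It had the smallest p of all ortholog groups (log2 fold change -4.45 ± 0.26 (SE), edgeR adjusted p = 4.15e-09), and its estimate without replicates 6 and 7 was -4.55 (edgeR adjusted p = 2.32e-07). The Hsp70-like ortholog group s2f_0000056010 had 103.2, 119, 116, 142, 107, 185 and 186 CPM in WAF replicates 1 to 7, against 941, 1033, 664, 1611, 301 and 287 CPM in control replicates 1 to 6. WAF replicates 6 and 7 were the highest WAF larvae here and still below every control (log2 fold change -2.56 ± 0.35 (SE), edgeR adjusted p = 8.45e-04).

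Hsp90 is the chaperone of many kinases and receptors, and its genes differed less. Of the genes called HSP 90-alpha-like, LOC121867741 had 161, 108.1, 123, 147, 79.8, 289 and 255 CPM in WAF replicates 1 to 7, against 443, 404, 581, 609.6, 331 and 504 CPM in control replicates 1 to 6. The groups did not overlap, but WAF replicates 6 and 7 were nearest to the controls, and the gene did not pass with all larvae (log2 fold change -1.53 ± 0.33 (SE), edgeR adjusted p = 0.0651). Without those larvae it was a DEG, with a log2 fold change of -1.95 (edgeR adjusted p = 0.0113). The other, LOC121867733, had a median of 709 CPM in WAF larvae and 1279 CPM in control larvae (log2 fold change -0.81, edgeR adjusted p = 0.182). The ortholog group of Hsp90-beta, s2f_0000398007, had between 764 and 1325 CPM (median 919) in WAF larvae, against 1404 to 3180.3 CPM (median 2174) in control larvae, and fell in WAF without reaching the fold change threshold (log2 fold change -1.14 ± 0.21 (SE), edgeR adjusted p = 0.0155). The ortholog group of HSP70-binding protein 1, s2f_0001620001, a nucleotide exchange factor that regulates the Hsp70 cycle in mammals, had between 13.3 and 18.7 CPM (median 14.9) in WAF larvae, against 21.5 to 56.7 CPM (median 32.8) in control larvae. It too was lower in WAF with no overlap (log2 fold change -1.16 ± 0.17 (SE), edgeR adjusted p = 0.00168).

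**Figure D2:**
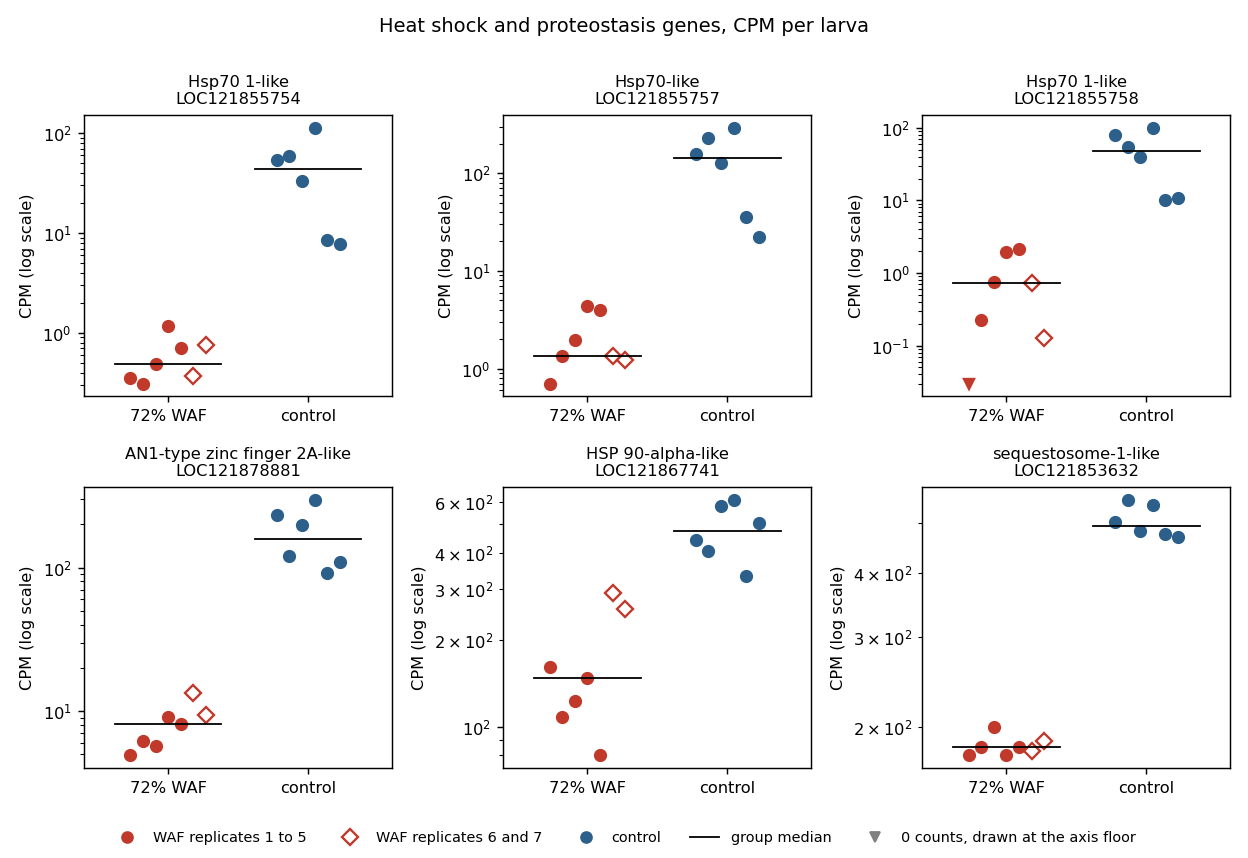
CPM per larva on a log axis for 3 Hsp70 genes, the AN1-type zinc finger 2A-like gene, an HSP 90-alpha-like gene and the sequestosome-1-like gene, with WAF larvae on the left of each panel and control larvae on the right. Open diamonds are WAF replicates 6 and 7, lines are group medians, and a triangle marks a larva with 0 counts. In every panel all WAF larvae lie below all control larvae, and in the Hsp70 panels control replicates 5 and 6 are the lowest controls.

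As a list, 12 heat shock and chaperone genes had a name and were tested in the Kallisto table. Of these 4 were lower in WAF, all 4 as DEGs, and none was higher, against 0.185% of all genes called lower. The 4 were the 3 Hsp70 genes and AN1-type zinc finger LOC121878881, which the list's words took in by its own name. The words were chosen with earlier results of these data known. The list's median log2 fold change was -0.73, against 0.01 over all genes. Its summed level lay between 937 and 1369 CPM (median 1005) in WAF larvae, against 1405 to 3679.9 CPM (median 2467) in control larvae. Members that did not pass included DnaJ A1-like LOC121867731 (-0.61, adjusted p = 0.314), which stimulates the ATPase of Hsp70, and the small heat shock protein genes LOC121866438 (-0.33) and LOC121875504 (0.08). The 3 genes named as heat shock cognate 4, LOC121863075, LOC121870242 and LOC121870243, had log2 fold changes of 0.15, -0.40 and -0.66 and did not pass either. Without replicates 6 and 7, 5 of the 12 were lower, against 0.286% of all genes, and the median was -1.05. In the Seq2Fun table, 12 groups of the list were tested, and 5 were lower and none higher, against 0.200% of all groups called lower, with a median of -0.52. Among the 5 was the AN1-type zinc finger group s2f_0001499003, taken in by the same words. The fifth was heat shock cognate 4, s2f_0000056024 (log2 fold change -0.74, adjusted p = 0.0498), which at 0.0502 missed the threshold without replicates 6 and 7. The group of heat shock factor itself, s2f_0000176005, had a log2 fold change of -0.43 (adjusted p = 0.701).

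Several named genes outside the chaperone list were lower. Sequestosome-1, called p62 in mammals, binds ubiquitin and carries tagged proteins to autophagosomes. Its gene LOC121853632 had 176, 183, 199, 176, 182, 179 and 187 CPM in WAF replicates 1 to 7, against 503, 557, 483, 544, 476 and 470.5 CPM in control replicates 1 to 6. Spread within each group was small, and no other gene had a smaller p (log2 fold change -1.46 ± 0.08 (SE), edgeR adjusted p = 1.12e-08). The fold of 2.76 fell just short of the threshold for a DEG. Nearly all its counts came from 1 of 2 transcripts, which gave the same difference (log2 fold change -1.45, adjusted p = 5.31e-08). Tubulin-folding cofactor B, which helps to assemble tubulin dimers, had between 87.7 and 120.3 CPM (median 100.2) in WAF larvae, against 174 to 259.7 CPM (median 225) in control larvae at LOC121879951 (log2 fold change -1.10 ± 0.10 (SE), edgeR adjusted p = 1.11e-05). TRIM32-like LOC121864745, named for a mammalian ubiquitin ligase, had between 0.374 and 1.57 CPM (median 1.14) in WAF larvae, against 2.58 to 8.95 CPM (median 4.29) in control larvae (log2 fold change -2.15 ± 0.36 (SE), edgeR adjusted p = 0.00594). It was the only member called lower among the 13 tested genes of the ubiquitin and proteasome list, against 0.185% of all genes, and none was called higher. In that list 11 of 13 had a log2 fold change above 0 (median 0.45), against 6 of 13 without replicates 6 and 7 (median -0.002). No group of that list passed in the Seq2Fun table, where 11 were tested (median -0.16). The group of the gamma subunit of eIF-2B, s2f_0004109002, which recharges the initiation factor eIF2 with GTP in translation, had 14.9 to 23.9 CPM in WAF larvae, against 24.1 to 30.3 CPM in control larvae (log2 fold change -0.62 ± 0.11 (SE), edgeR adjusted p = 0.0123). The group of exonuclease 3'-5' domain-containing protein 2, s2f_0001028003, had 15.8 to 26.1 CPM in WAF larvae, against 30.7 to 54.5 CPM in control larvae, and the gene of the same name, LOC121871456, had 9.55 to 15.7 CPM in WAF larvae, against 17.6 to 27.7 CPM in control larvae. Both were lower in WAF (log2 fold change -0.86 ± 0.14 (SE), edgeR adjusted p = 0.00515 for the group, and log2 fold change -0.92 ± 0.14 (SE), edgeR adjusted p = 0.00346 for the gene).

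A pair of cytochrome P450 genes was nearly silent in WAF larvae. P450 enzymes of family 6 oxidize plant compounds and pesticides in insects. LOC121864545, P450 6k1-like, had 0, 0, 0, 0.262, 0.0936, 0.136 and 0.254 CPM in WAF replicates 1 to 7, against 7.03, 4.37, 2.08, 1.67, 1.74 and 1.87 CPM in control replicates 1 to 6. Its 3 WAF larvae at 0 counts allow up to 0.263 CPM at the limit of 3 counts, below every control (log2 fold change -4.72 ± 0.59 (SE), edgeR adjusted p = 4.09e-04). LOC121878279, also P450 6k1-like, had 0, 0, 0, 0, 0, 0 and 0.211 CPM in WAF replicates 1 to 7, against 2.40, 0.589, 0.947, 1.18, 0.516 and 1.08 CPM in control replicates 1 to 6. It had 0 counts in 6 of the 7 WAF larvae and 5 counts in all of them together, and it was a DEG in 7 of the 13 fits that left out a larva, so neither its call nor the size of its fitted fold is firm (log2 fold change -5.04 ± 0.95 (SE), edgeR adjusted p = 0.0225). The other 3 genes of that name did not pass and did not share 1 direction. LOC121859289 had 0 to 0.131 CPM in WAF larvae, against 0.286 to 1.46 CPM in control larvae (log2 fold change -3.89 ± 0.85 (SE), edgeR adjusted p = 0.0630). LOC121880228 had 0 to 0.830 CPM in WAF larvae, against 0 to 2.70 CPM in control larvae (log2 fold change -2.17 ± 1.37 (SE), edgeR adjusted p = 0.674). LOC121870124 went the other way, with 0.965, 0, 0, 0.175, 0.468, 0.582 and 0.169 CPM in WAF replicates 1 to 7, against 0, 0, 0, 0, 0 and 0 CPM in control replicates 1 to 6, which was 59 counts in WAF larvae and none in control larvae (edgeR adjusted p = 0.259). Most other P450 genes did not follow, since 23 of the 28 tested had a log2 fold change above 0 and the list's median was 0.57. That direction turned without replicates 6 and 7, where 21 of 28 lay below 0 and the median was -0.58. The pair stayed lower in that fit (-5.25, edgeR adjusted p = 0.00138 for LOC121864545, and 0.0268 for LOC121878279, where all 5 WAF larvae held 0 counts and no fold is given). Among the 7 P450 ortholog groups none passed, and the nearest was 49a1-like s2f_0000436007 with 185 to 240.5 CPM in WAF larvae, against 121 to 162 CPM in control larvae, which was higher in each WAF larva (log2 fold change 0.52 ± 0.12 (SE), edgeR adjusted p = 0.0902).

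Among the long noncoding RNAs, 3 with adjacent identifiers were lower in WAF. LOC121863978 had 1.58, 1.99, 1.33, 0.699, 0.468, 8.78 and 3.30 CPM in WAF replicates 1 to 7, against 137.95, 140.0, 103.9, 125, 39.3 and 51.9 CPM in control replicates 1 to 6. WAF replicates 6 and 7 were the highest WAF larvae and remained below the lowest control (log2 fold change -5.19 ± 0.63 (SE), edgeR adjusted p = 2.88e-04). LOC121863977 had between 2.48 and 16.8 CPM (median 3.89) in WAF larvae, against 41.1 to 144 CPM (median 92.9) in control larvae (log2 fold change -3.77 ± 0.47 (SE), edgeR adjusted p = 4.09e-04), and LOC121863976 had between 0.480 and 9.66 CPM (median 1.77) in WAF larvae, against 47.4 to 129 CPM (median 80.5) in control larvae (log2 fold change -4.72 ± 0.65 (SE), edgeR adjusted p = 0.00112). Replicate 6 was the highest WAF larva in all 3 genes and replicate 7 the next. Without them the log2 fold changes were -6.38, -4.65 and -5.99. No function is annotated for these genes.

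The protein kinase gene LOC121867949, named for samkC of Dictyostelium, had 0.0878, 0.266, 0.0442, 0.0874, 0.187, 0.368 and 0.169 CPM in WAF replicates 1 to 7, against 14.1, 11.6, 9.91, 21.3, 8.89 and 5.99 CPM in control replicates 1 to 6. Its highest WAF larva held a small part of the lowest control (log2 fold change -5.94 ± 0.64 (SE), edgeR adjusted p = 9.47e-05). The ortholog group of the same name, s2f_0112968001, had between 0 and 0.689 CPM (median 0.249) in WAF larvae, against 8.85 to 42.8 CPM (median 18.1) in control larvae (log2 fold change -5.86 ± 0.65 (SE), edgeR adjusted p = 5.02e-05). The uncharacterized genes LOC121876260 and LOC121859558 also appeared in both tables. LOC121876260 had between 0.116 and 0.790 CPM (median 0.349) in WAF larvae, against 6.38 to 14.5 CPM (median 9.75) in control larvae (log2 fold change -4.87 ± 0.67 (SE), edgeR adjusted p = 0.00112), and the group named for it, s2f_0383137001, had a log2 fold change of -5.09 (edgeR adjusted p = 0.00170). LOC121859558 had between 0.752 and 2.01 CPM (median 1.51) in WAF larvae, against 10.9 to 18.7 CPM (median 13.1) in control larvae (log2 fold change -3.39 ± 0.49 (SE), edgeR adjusted p = 0.00174), and its group s2f_0381145001 gave -3.11 (edgeR adjusted p = 0.00497). Both tables come from the same reads, so the second is not a replicate of the first.

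The other lower DEGs in the Kallisto table had no informative name. LOC121867050 had between 5.13 and 8.39 CPM (median 6.92) in WAF larvae, against 13.3 to 35.6 CPM (median 26.2) in control larvae, LOC121869130 had 1.57 to 5.51 CPM in WAF larvae, against 12.3 to 41.2 CPM in control larvae, and LOC121859157 had 1.78 to 16.9 CPM in WAF larvae, against 34.3 to 55.9 CPM in control larvae. Their log2 fold changes were -1.90, -2.94 and -3.07. None of the 3 transcripts of LOC121867050 passed when tested by itself. In LOC121859157 WAF replicate 6 stood far above the other WAF larvae. LOC121875286, LOC121864558 and LOC121876808 had log2 fold changes of -2.45, -2.41 and -3.38, with medians of 3.28, 0.531 and 0.177 CPM in WAF larvae, against 16.6, 2.995 and 2.88 CPM in control larvae. LOC121858980 lay at the threshold (log2 fold change -1.52 ± 0.30 (SE), edgeR adjusted p = 0.0294) and missed it without replicates 6 and 7 (edgeR adjusted p = 0.0554). Below the fold threshold, LOC121873682 and LOC121853291 were lower (-1.13 and -0.70, edgeR adjusted p = 0.00160 and 0.00536).

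Of the other ortholog groups, s2f_0005007002 had between 95.5 and 145 CPM (median 121) in WAF larvae, against 386 to 458 CPM (median 400.0) in control larvae, with little spread in either group (log2 fold change -1.75 ± 0.12 (SE), edgeR adjusted p = 5.56e-08). The group s2f_0000647004, listed as a hypothetical protein under the symbol ALF1, had between 7.71 and 17.9 CPM (median 11.5) in WAF larvae, against 45.3 to 65.9 CPM (median 58.6) in control larvae (log2 fold change -2.26 ± 0.25 (SE), edgeR adjusted p = 5.02e-05). The group of an ADP-ribosylation factor-like protein, s2f_0000032008, a family of small GTPases of vesicle traffic, had between 0.377 and 1.53 CPM (median 1.13) in WAF larvae, against 3.28 to 6.93 CPM (median 4.41) in control larvae (log2 fold change -2.26 ± 0.34 (SE), edgeR adjusted p = 0.00170). The group s2f_0200416001, named for a leucine-rich repeat extensin, a plant cell wall protein, had between 2.71 and 20.5 CPM (median 6.21) in WAF larvae, against 44.5 to 93.6 CPM (median 68.7) in control larvae (log2 fold change -3.14 ± 0.47 (SE), edgeR adjusted p = 0.00170). The groups s2f_0080103001, s2f_0093692001 and s2f_0144848001 carry names of uncharacterized proteins and had log2 fold changes of -1.92, -2.94 and -1.74. The last, s2f_0002800001, passed narrowly (log2 fold change -1.99 ± 0.42 (SE), edgeR adjusted p = 0.04998) and was a DEG in 1 of the 13 fits that left out a larva. Under the fold threshold s2f_0001296003 was also lower (-0.47, edgeR adjusted p = 0.0202).

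The features that were higher in WAF had smaller differences. Band 3 proteins exchange chloride for bicarbonate across cell membranes, and LOC121879501, band 3-like, had 271, 219.7, 286, 226, 228, 187 and 149 CPM in WAF replicates 1 to 7, against 100.3, 131, 107.8, 129.7, 88.1 and 105.3 CPM in control replicates 1 to 6. All WAF larvae exceeded all controls, with replicates 6 and 7 nearest to them (log2 fold change 1.02 ± 0.14 (SE), edgeR adjusted p = 0.00122). Gamma-butyrobetaine dioxygenase makes carnitine, which carries fatty acids into mitochondria, and LOC121877067 had between 52.1 and 95.2 CPM (median 69.2) in WAF larvae, against 26.3 to 42.1 CPM (median 28.5) in control larvae. The groups did not overlap (log2 fold change 1.13 ± 0.19 (SE), edgeR adjusted p = 0.00586). The histone acetyltransferase gene LOC121858716, KAT6A-like, had between 54.7 and 78.5 CPM (median 67.6) in WAF larvae, against 41.2 to 50.3 CPM (median 47.7) in control larvae (log2 fold change 0.52 ± 0.09 (SE), edgeR adjusted p = 0.00594), and did not pass with library sizes without TMM (log2 fold change 0.40, edgeR adjusted p = 0.463). Trehalose is the main blood sugar of many arthropods, and the group of trehalose-phosphate synthase, s2f_0000779006, had 687, 799, 913, 557, 837, 701 and 780.3 CPM in WAF replicates 1 to 7, against 336, 423, 354, 222, 304 and 412 CPM in control replicates 1 to 6. Every WAF larva was above every control, replicates 6 and 7 included (log2 fold change 1.14 ± 0.22 (SE), edgeR adjusted p = 0.0192). The group of helix-loop-helix protein delilah-like, s2f_0000084037, named for a Drosophila factor of muscle attachment cells, had 20.7 to 29.0 CPM in WAF larvae, against 11.1 to 17.4 CPM in control larvae (log2 fold change 0.82 ± 0.13 (SE), edgeR adjusted p = 0.00311). The group of ANKS4B, s2f_0001790002, a scaffold of brush border microvilli in mammals, had 12.3 to 27.1 CPM in WAF larvae, against 9.68 to 14.6 CPM in control larvae, with replicate 7 inside the control range (log2 fold change 0.92 ± 0.17 (SE), edgeR adjusted p = 0.0176).

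**Figure D3:**
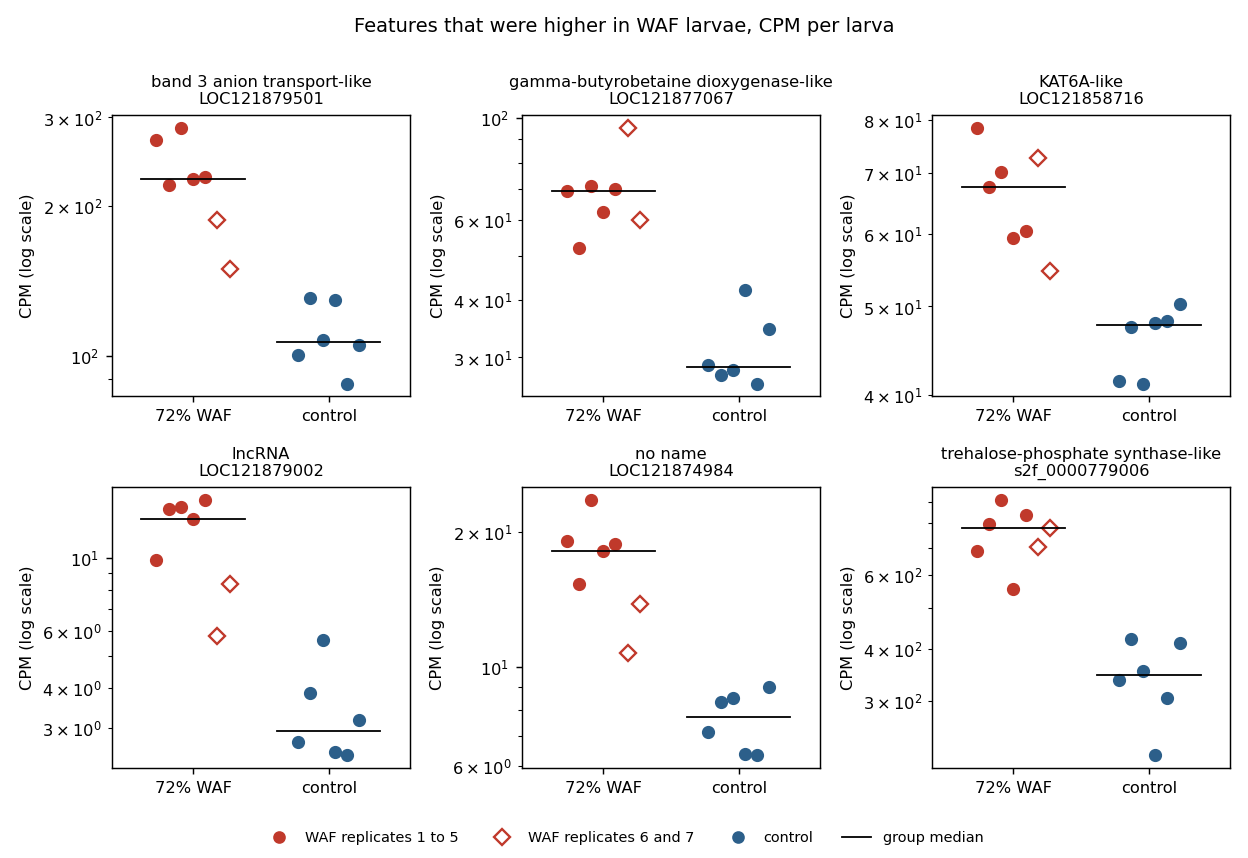
CPM per larva on a log axis for 6 features that were higher in WAF larvae (left of each panel) than in control larvae (right). Open diamonds are WAF replicates 6 and 7, and lines are group medians. The groups do not overlap in any panel, and in LOC121879002, LOC121879501 and LOC121874984 replicates 6 and 7 are the WAF larvae nearest to the controls.

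The 2 higher DEGs were a long noncoding RNA and an uncharacterized gene. LOC121879002, the noncoding RNA, had 9.92, 14.2, 14.4, 13.2, 15.2, 5.76 and 8.33 CPM in WAF replicates 1 to 7, against 2.72, 3.87, 5.62, 2.53, 2.48 and 3.19 CPM in control replicates 1 to 6. Replicates 6 and 7 were the lowest WAF larvae, replicate 6 was close to the highest control, and the gene was a DEG in 9 of the 13 fits that left out a larva (log2 fold change 1.78 ± 0.33 (SE), edgeR adjusted p = 0.0206). LOC121879926 had between 3.19 and 7.62 CPM (median 5.09) in WAF larvae, against 0.899 to 2.15 CPM (median 1.74) in control larvae (log2 fold change 1.66 ± 0.34 (SE), edgeR adjusted p = 0.0434). It was a DEG in 1 of the 13 fits that left out a larva and missed the threshold without replicates 6 and 7 (edgeR adjusted p = 0.0595). No gene was a higher DEG in the fits without control replicate 1, 4, 5 or 6. Below the fold threshold, LOC121874984 and LOC121874996 were higher by 1.16 and 0.79 (edgeR adjusted p = 0.00229 and 0.0147), as were the groups s2f_0144589001 and s2f_0000260006 by 1.49 and 0.92 (edgeR adjusted p = 0.00170 and 0.00168).

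With WAF replicates 6 and 7 left out, more features passed. The Kallisto table then held 33 DEGs, 30 lower (0.159%) and 3 higher, of which 20 were among the 22 above, and 54 genes were lower at an adjusted p below 0.05 (0.286%) and 25 higher. The Seq2Fun table held 31 DEGs, 29 lower (0.264%) and 2 higher, with all 13 of those above, and 122 groups were lower (1.11%) and 38 higher. Of the 11 genes that were newly lower, replicates 6 and 7 both lay above the other 5 WAF larvae in 8. Of the 16 newly lower ortholog groups they did so in 15. At least 1 of them lay within the control range in 6 of the 11 genes and 15 of the 16 groups, whereas this held for none of the DEGs in the full comparison. The new features were taken as DEGs without replicates 6 and 7 that were not DEGs with all larvae, so the place of these larvae follows in part from that choice. These counts are thus a description, and the share over all features was not counted. Among the new genes, LOC121875059, without a name, had 0.176, 0.488, 0.310, 0.262, 0.187, 8.09 and 1.39 CPM in WAF replicates 1 to 7, against 19.1, 12.2, 9.28, 8.17, 5.45 and 9.82 CPM in control replicates 1 to 6. Replicate 6 alone lay within the control range, and the log2 fold change was -2.67 with all larvae (edgeR adjusted p = 0.307) and -5.16 without replicates 6 and 7 (0.00174). The ortholog group s2f_0000904002 had 197, 292, 274, 276, 218, 1284 and 1165 CPM in WAF replicates 1 to 7, against 664, 511, 1202, 399.9, 1117 and 1311 CPM in control replicates 1 to 6. Here replicates 6 and 7 were in the upper part of the control range, and the estimates were -0.71 (0.731) and -1.75 (0.0305). The gene LOC121863657, without a name, was newly higher at 1.78 (edgeR adjusted p = 0.0268), as was the lncRNA LOC121854555 at 1.68 (edgeR adjusted p = 0.0220), and so was the group s2f_0071053001 at 1.55 (0.0482). The newly lower groups with a name were M-phase phosphoprotein 8-like s2f_0048338001, a WD repeat protein s2f_0002265003 and acanthoscurrin-1-like s2f_0112922001, named for a spider antimicrobial peptide, at -1.94, -2.17 and -1.51. The gain in ortholog groups was not seen with control replicates 5 and 6 left out as well, a choice made after seeing the data. That fit also held fewer controls, and the cause of the change was not tested. In it 31 genes were DEGs (30 lower, 1 higher, 20 of the 22) but only 11 ortholog groups (all lower, 10 of the 13), without s2f_0383137001, s2f_0381145001 and s2f_0002800001. The 3 Hsp70 genes, LOC121878881, s2f_0001499003 and s2f_0000056010 stayed DEGs, while the higher DEGs LOC121879002 and LOC121879926 did not.

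Replicates 6 and 7 also set the direction of several gene lists. Hemocyanin is the copper protein that carries oxygen in crustacean blood, and the summed level of its 15 genes was 102, 68.4, 119, 609, 143, 12105 and 3573 CPM in WAF replicates 1 to 7, against 259, 186, 489, 271, 1059 and 986 CPM in control replicates 1 to 6. Replicates 6 and 7 were above every control, 4 of the other 5 WAF larvae were below the lowest control, and both replicates fell within the range of the methylnaphthalene larvae, 3095 to 16039 CPM. The list's median log2 fold change was 2.53 with all larvae and -1.48 without the pair, and no member passed in either fit. In the Seq2Fun table the single hemocyanin group, s2f_0002890013, gave 2.59 and -1.97. The 10 genes that matched carboxylesterase or related names, enzymes that split esters, turned likewise (median 0.73 and -0.41). Their sum was 263 and 130.4 CPM in replicates 6 and 7 and 33.3 to 54.8 CPM in the other WAF larvae, against 35.0 to 72.8 CPM in control larvae. The name pattern took in NOTUM-like LOC121853088, which in animals removes a lipid from Wnt proteins, and it alone passed without the pair (0.90, edgeR adjusted p = 0.0255). Over all genes, 25 of 18914 were called higher in that fit. The digestive protease list of 21 genes turned as well (0.57 and -0.41), as did the immune and hemocyte list of 10 (0.36 and -0.24), with no member called in either fit. Neither list turned in the Seq2Fun table. Its 12 protease groups had medians of 0.38 and 0.18, and its 7 immune groups -0.01 and -0.19. Replicates 6 and 7 there had the lowest immune sums of the WAF larvae (2266 and 2329 CPM, against 2441 to 3454 CPM in the others). The cause of the split was not tested.

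**Figure D4:**
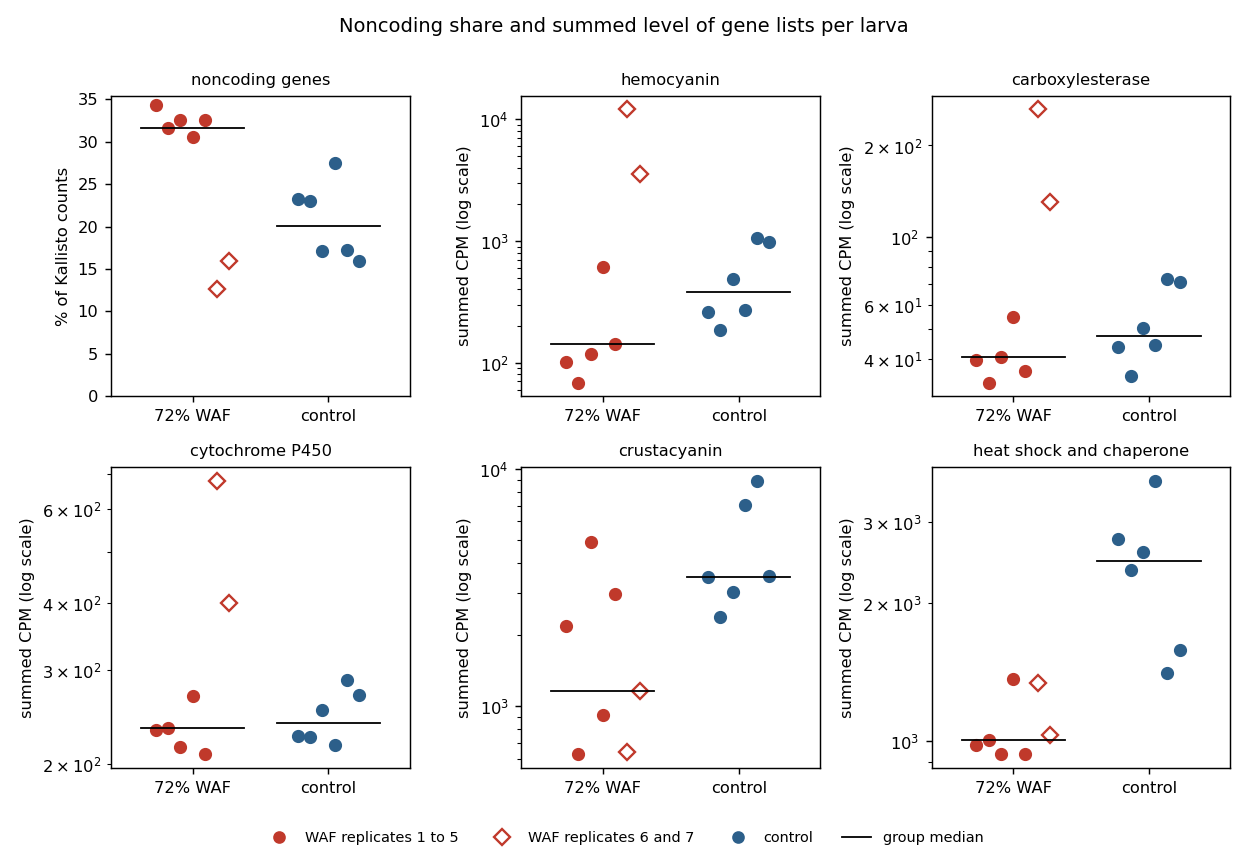
Share of Kallisto counts from noncoding genes (percent, first panel) and summed CPM of 5 gene lists (log axes) per larva, with WAF larvae on the left of each panel and control larvae on the right. Open diamonds are WAF replicates 6 and 7, and lines are group medians. Replicates 6 and 7 have the lowest noncoding share and the highest hemocyanin, carboxylesterase and P450 sums of the WAF larvae, but lie among the other WAF larvae for crustacyanin and heat shock genes.

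Crustacyanin, the pigment-binding protein that colours lobster shell, was low in WAF larvae under both comparisons without passing. The 10 genes summed to 2173, 626, 4937, 916, 2959, 639.9 and 1161 CPM in WAF replicates 1 to 7, against 3488, 2362, 3035, 7008, 8889 and 3516 CPM in control replicates 1 to 6. The groups overlapped, with 2 WAF larvae (replicates 3 and 5) above the lowest control. All 10 had a log2 fold change below 0 (median -1.63), and 9 had an unadjusted p below 0.05, against 3.60% of all genes, but the smallest adjusted p was 0.225, at LOC121869723 (29.2 to 241 CPM in WAF larvae, against 139 to 734 CPM in control larvae). Without replicates 6 and 7 the median was -1.42. Crustacyanin genes LOC121868913 and LOC121875840 had identical values throughout and cannot be told apart by these reads. The 32 tested genes of the cuticle and chitin list had a median of -0.21 and none was called. Its 8 ortholog groups had a median of 0.35, 5 of them above 0, and none was called. The list's words took in cuticle proteins, chitinases and chitin synthase. With all larvae most cuticle protein genes lay below 0 and most chitinase genes above 0, so the gene median mixes opposite directions. The genes' sum lay between 1318 and 3194 CPM (median 1625) in WAF larvae, against 1255 to 3668 CPM (median 3259) in control larvae, and control replicates 5 and 6 were the lowest controls. Without the pair 30 of the 32 had a log2 fold change below 0 (median -1.11), as had all 8 ortholog groups (median -0.86).

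No muscle gene was called with all larvae. The 10 genes in the Kallisto table summed to between 11564 and 24239.8 CPM (median 18980.0) in WAF larvae, against 22999.9 to 32423 CPM (median 27188) in control larvae, with a median log2 fold change over all larvae of -0.23. The list's words also took in the unconventional myosins LOC121862480, LOC121867196 and LOC121874040 (0.03, 0.24 and 0.29) and myosin-VIIa-like LOC121879667 (0.22). Titin-like LOC121873119 lay at 1.15, and the other members, from troponin I to myosin regulatory light chain 2-like, at -0.48 to -0.67. Unconventional myosins were also among the Seq2Fun groups of the list. In the Seq2Fun table, the 11 muscle groups had a median of -0.57 and none was called with all larvae. Without replicates 6 and 7, none of the 10 genes was called (median -0.65), and 3 of the 11 groups were lower, against 1.11% of all groups. These were troponin I, s2f_0001347006 (-0.75), and the light chains of myosin, s2f_0000018038 (-1.05) and s2f_0000677009 (-0.94). Troponin I had 2603, 1949, 2043, 2116, 1707, 3099 and 3290.3 CPM in WAF replicates 1 to 7, against 3583, 3283, 4223, 3584, 3164 and 3611 CPM in control replicates 1 to 6. Replicates 6 and 7 were the highest WAF larvae, and replicate 7 alone overlapped the controls. In whole larvae, fewer muscle cells and less of this RNA per cell cannot be told apart.

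The remaining lists of detoxification and stress gave no called gene in the Kallisto table with all larvae. The glutathione transferase and conjugation list of 17 had a median of 0.32 with all larvae and 0.02 without replicates 6 and 7, and sulfotransferase 1A1-like LOC121856847, which adds sulfate to phenols, had 39.8 to 61.6 CPM in WAF larvae, against 33.9 to 40.0 CPM in control larvae (log2 fold change 0.37 ± 0.10 (SE), edgeR adjusted p = 0.183). Its pattern also matched carbohydrate sulfotransferases, which act on sugar chains. The oxidative stress and metal binding list of 9 had a median of 0.30 with all larvae and -0.07 without replicates 6 and 7, and peroxiredoxin-6-like LOC121866244, which reduces peroxides, had 106 to 125 CPM in WAF larvae, against 85.0 to 101 CPM in control larvae without overlap (log2 fold change 0.30 ± 0.08 (SE), edgeR adjusted p = 0.200). Glutathione peroxidase-like LOC121858231 had 0.796 to 4.71 CPM in WAF larvae, against 2.90 to 5.15 CPM in control larvae (log2 fold change -0.81 ± 0.31 (SE), edgeR adjusted p = 0.488). The drug transporter list held 2 genes, ABC transporter G 20-like LOC121862193 and ABC D2-like LOC121853499, a relative of peroxisomal fatty acid transporters in mammals. Their log2 fold changes were 1.25 and 0.25, without passing, and -0.61 and -0.44 without replicates 6 and 7, which were the highest WAF larvae in both. No opsin or arrestin, the markers of eye, carried a name in the available list. In the Seq2Fun table none of these lists had a called group.

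Values of the methylnaphthalene larvae are set beside the lower DEGs, with the same controls in both contrasts. The median of WAF larvae was below that of methylnaphthalene larvae in all 20 genes and all 13 ortholog groups, which is a description, since these features were chosen for being low in WAF. All methylnaphthalene larvae were below all controls in 7 of the 20 and 4 of the 13. That is a description too, since the lower DEGs were chosen for being high in these same controls. The share over all features was not counted. The 3 Hsp70 genes summed to 0.759 to 22.5 CPM in methylnaphthalene larvae, which overlapped the WAF range of 1.05 to 7.47 CPM. AN1-type zinc finger 2A-like LOC121878881 had 7.74 to 31.0 CPM (median 15.4) in methylnaphthalene larvae and sequestosome-1-like LOC121853632 had 180.5 to 259 CPM (median 215). For both, the lowest control was above the highest methylnaphthalene larva, so the control larvae held the highest levels of the 3 groups. The lncRNA LOC121863978 had 16.5 to 83.4 CPM (median 23.4) in methylnaphthalene larvae and overlapped the controls.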

How the data were processed

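RNA-seq count tables of 7 WAF and 6 control larvae were analysed, fitted together with 6 methylnaphthalene larvae. The authors kept reads with a quality of at least 25 and deposited expected counts per transcript, estimated by Kallisto on the GMGI_Hamer_2.0 transcripts, and raw counts per Seq2Fun ortholog group (Crustaceans database, at most 2 mismatches, matching length of at least 19, BLOSUM62 score of at least 80), both without normalization. Here the 46006 transcripts were summed to 25667 genes through the RefSeq table of that assembly and rounded. Features with a total under 4 counts, and then the 15% with the smallest interquartile range of counts, were removed.

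Differences were tested with edgeR 4.0.16 under R 4.3.3 (TMM, quasi-likelihood test, no covariates, contrast of WAF over control). The study's methods name limma, so limma 3.58.1 on log2 CPM (prior count 0.5), the likelihood ratio test and DESeq2 1.42.0 were alternatives. Other alternatives were library sizes without TMM, no filter, filterByExpr, only the 13 larvae, protein-coding genes, transcripts, no fold change threshold, the replicate number as a block, each larva left out, and WAF replicates 6 and 7 left out. Fits of the block's larvae without the block, and without WAF replicates 6 and 7 and control replicates 5 and 6, were chosen after seeing the data. The test was tried on simulated data. Single values per larva were compared by an exact permutation test over all 1716 splits.

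Members and lists were chosen with earlier results of these data known. Named features are all DEGs, the 5 with the smallest p in each direction below the fold threshold, up to 4 members per list, and the most abundant noncoding gene. DEGs of the fit without WAF replicates 6 and 7 and other list members, such as further P450 6k1-like genes, were named after their values were seen. Lists were built from words in gene names, known for 1999 genes and 1690 ortholog groups. The p-values and fold changes in the supplementary list were not used. No promoter or other sequence was analysed here, and no coordinates are given. Of the genes tested, 200 had counts identical to another gene, none of them a DEG. No pair of libraries held identical values. Limits for 0 counts cover counting error only. The standard error of an edgeR log2 fold change was its absolute value divided by the square root of the test's F statistic. It thus includes the spread between larvae.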

Additional observations from a re-analysis of the deposited data

Results flagged for a closer look

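Of 72 groups of larvae checked for a single value far from the rest, 7 had one, and chance gives about 1 in 20. Among the lower DEGs, WAF replicate 6 stood above the other 6 WAF larvae in LOC121863978 (8.78 CPM, the next 3.30), LOC121863976 (9.66 CPM, the next 4.27), LOC121859157 (16.9 CPM, the next 4.74), LOC121876808 (0.717 CPM, the next 0.328) and the ortholog group s2f_0200416001 (20.5 CPM, the next 7.96). In P450 6k1-like LOC121878279, WAF replicate 7 held 0.211 CPM and the other WAF larvae 0. In the same gene control replicate 1 held 2.40 CPM, the next control 1.18. Each of these WAF values was still below every control larva.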

How the results depend on the processing

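The count of 22 DEGs in the Kallisto table was 43 (11 higher, 32 lower) with the likelihood ratio test, 45 (10 higher, 35 lower) with DESeq2 and 49 without the fold change threshold, and all 22 were among the calls of each. It was 33 without WAF replicates 6 and 7, 31 without these and control replicates 5 and 6, 17 with transcripts, and between 21 and 25 with the other alternatives apart from the block. Leaving out 1 larva gave 18 to 30 DEGs, the highest without WAF replicate 6. The 13 DEGs in the Seq2Fun table became 31 without WAF replicates 6 and 7, 11 without these and control replicates 5 and 6, 31 without the fold change threshold, 12 to 14 with 1 larva left out, 17 with the likelihood ratio test and 14 with DESeq2. The difference in noncoding share was 11.7 points without WAF replicates 6 and 7 and 5.32 to 8.93 points with 1 larva left out. With library sizes without TMM, the median log2 fold change of all genes was -0.09, and LOC121879926, LOC121871456, LOC121858716, LOC121874996, s2f_0002800001 and s2f_0001296003 lost their call.

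With the replicate block (WAF and control replicates 1 to 6), 17 genes were DEGs, against 25 in the same larvae without it, and 15 ortholog groups, against 16. At the adjusted p alone, 30 genes passed with the block, against 46, and 33 ortholog groups, against 26. At an unadjusted p below 0.05, 1453 genes were higher and 1741 lower with the block, against 1189 and 898. For ortholog groups these counts were 1009 and 1157, against 632 and 570. Same-numbered larvae deviated together with a correlation of -0.17 to 0.30 over genes and -0.15 to 0.48 over ortholog groups, above 0.1 in 3 and 4 of 6 pairs. These mixed values do not settle whether the numbers pair the larvae.

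No feature named above for its adjusted p changed direction. The DEGs kept their call in 503 of 546 gene fits and 294 of 312 ortholog group fits, and the features called by adjusted p alone in 238 of 250 and 203 of 240. The cause of the other outcomes was not tested. Depth limits P450 LOC121878279, which held 5 counts over 7 WAF larvae.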
